A study of Mus musculus with 32 samples.

Results

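A set of 10 genes of the platelet-derived growth factor (PDGF) and mural cell programme was followed through sorted islet cells, and its members were taken by gene symbol from a table of 22850 genes in which all 10 were found. They were the ligand gene *Pdgfb*, the receptor genes *Pdgfra* and *Pdgfrb*, the pericyte genes *Rgs5*, *Cspg4*, *Des* and *Vtn*, and the contractile genes *Acta2*, *Myh11* and *Tagln*. The 32 RNA-seq libraries came from islets of βVEGF-A mice on a C57BL/6 background and were sorted into β cells, ECs (endothelial cells) and MΦs (macrophages). Every mouse, controls included, carried MIP-GFP (green fluorescent protein under a mouse insulin promoter, which marks β cells), RIP-rtTA (a doxycycline-dependent activator under a rat insulin promoter) and TetO-VEGF-A (human VEGF-A under the promoter that this activator switches on). The No Dox groups held 4 β cell, 4 EC and 4 MΦ libraries from mice that received no doxycycline (Dox). The 1wk Dox groups, from mice given Dox for 1 week, held 5, 1 and 2 libraries, and the 1wk WD groups, from mice 1 week after Dox was withdrawn, held 3, 5 and 4. The β cell gate took GFP+ cells from those negative for CD31 and CD11b, the EC gate CD31+ cells and the MΦ gate CD11b+ cells, and no marker of pericytes or fibroblasts was used. Islets of several mice were pooled for each library, and the study describes the libraries of a group as biological replicates.

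PDGF-B is a dimeric growth factor that ECs secrete and hold at their surface, and it recruits and keeps pericytes, which carry PDGF receptor β on their membrane. PDGF receptor α binds PDGF-A and PDGF-C as well and is carried mainly by fibroblasts and other stromal cells. Pericytes and vascular smooth muscle cells, together called mural cells, wrap islet capillaries and arterioles. They express *Rgs5* (a regulator of G-protein signalling), *Cspg4* (the NG2 proteoglycan) and *Des* (the intermediate filament desmin), and the contractile members of the family use *Acta2* (smooth muscle α-actin), *Myh11* (smooth muscle myosin heavy chain) and *Tagln* (transgelin, an actin-binding protein). *Vtn* encodes vitronectin, an adhesive glycoprotein made in quantity by liver and also by pericytes of some tissues.

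In the mm9 build *Pdgfb* lies on chromosome 15 from 79826330 to 79845238 (minus strand), *Rgs5* on chromosome 1 from 171585632 to 171625944 (plus strand), *Acta2* on chromosome 19 from 34315580 to 34329826 (minus strand) and *Tagln* on chromosome 9 from 45737711 to 45744141 (minus strand). Contractile genes are classical targets of serum response factor, which binds the CArG box. The 150 bases before the start of *Acta2* (chr19:34329827-34329976, minus strand) and of *Tagln* (chr9:45744142-45744291, minus strand) are shown 5′ to 3′ because *Acta2* is the member with the lowest adjusted p between time points at a given *Pdgfrb* level, a comparison described later, and *Tagln* holds the 1 full match among the members searched. Capitals mark a CArG box in *Tagln* and, in *Acta2*, matches in which 1 of the 6 inner bases is G or C.
Acta2: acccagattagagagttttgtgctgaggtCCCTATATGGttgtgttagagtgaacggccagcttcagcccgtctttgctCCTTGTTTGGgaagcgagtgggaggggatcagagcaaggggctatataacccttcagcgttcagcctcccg
Tagln: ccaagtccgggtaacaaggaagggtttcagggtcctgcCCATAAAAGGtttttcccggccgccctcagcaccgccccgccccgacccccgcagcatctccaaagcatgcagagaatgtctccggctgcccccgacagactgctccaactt
The *Tagln* match ran from 112 to 103 bases before the gene start, and the *Acta2* matches ran from 121 to 112 and from 71 to 62 bases before it. *Pdgfrb* was left out of the member search. Of the 9 other members, searched over 300 bases on both strands, 1 held a full match and 2 held either kind, against 1.63% and 10.1% of 22845 genes. A match of letters is a description of the sequence and not evidence of binding.

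All values below are scores, the whole numbers that the authors deposited after scaling reads per gene between libraries, with 1 as the lowest value and no signal. The number of reads behind a score is unknown, the scores are not stated to be per unit of gene length, and levels are therefore compared between libraries and not between genes. The sorted ECs and MΦs carried their own markers: *Pecam1* (CD31) was 61523 to 79350 in ECs, and *Itgam* (CD11b) was 20309 to 45478 in MΦs. Several β cell libraries stood apart from the others of their group. A list of 10 β cell genes made up 22.4% and 16.3% of all scores in No Dox replicates 1 and 2 but 3.37% and 1.48% in replicates 3 and 4, and 10 acinar genes made up 2.09%, 0.108%, 28.3% and 24.2% in the same 4 libraries. At 1wk Dox the β cell genes made up 2.19 to 10.2%. At 1wk WD they made up 2.30%, 6.57% and 28.0% in replicates 1, 2 and 3.

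In β cells, 9 of the 10 genes were high in the libraries in which β cell genes were low. *Pdgfrb*, a receptor gene of mural cells, had scores of 80, 66, 13692 and 49477 in the No Dox β cell libraries. At 1wk Dox it had 29295, 10492, 20841, 34404 and 6919, and at 1wk WD 48280, 40295 and 3980. The No Dox libraries thus spanned both the lowest and the highest *Pdgfrb* scores of all β cell libraries, and the 3 groups overlapped. No Dox replicates 1 and 2 lay below every EC and MΦ library, the lowest of which was 145.

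*Pdgfra*, the stromal receptor, had scores of 3, 3, 3019 and 10967 at No Dox, of 1673, 1448, 1247, 2222 and 824 after 1wk Dox, and of 14446, 9646 and 291 at 1wk WD. It therefore split the No Dox libraries at the same place as *Pdgfrb*, but the 5 libraries at 1wk Dox lay below the 2 high libraries of either other time point. As a share of *Pdgfrb*, *Pdgfra* was 3.75%, 4.54%, 22.1% and 22.2% in the No Dox libraries, 5.71 to 13.8% after 1wk Dox, which lay between those pairs, and 7.31 to 29.9% in the 1wk WD libraries.

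Among the pericyte genes, *Rgs5* had scores of 619, 870, 80059 and 328651 at No Dox. The 5 scores at 1wk Dox were 320202, 62837, 153284, 292228 and 55191, and the 3 at 1wk WD were 110039, 119247 and 10842. The No Dox libraries again lay on both sides of the other groups. *Cspg4* ran from 74 to 12470 at No Dox, from 2759 to 13040 at 1wk Dox and from 887 to 9535 at 1wk WD. *Des* ran from 1 to 4520, from 412 to 2905 and from 164 to 3435, and *Vtn* from 1 to 2393, from 109 to 719 and from 61 to 513. All 4 pericyte genes placed the No Dox libraries as *Pdgfrb* did, with replicates 1 and 2 low, replicate 3 far above them and replicate 4 the highest.

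The contractile genes had the same split at No Dox. *Acta2* had scores of 9, 13, 2284 and 3904 at No Dox, of 9787, 2349, 5647, 8690 and 1570 after 1wk Dox, and of 2194, 1706 and 213 at 1wk WD. Its 3 highest scores were all from 1wk Dox, whereas those of *Pdgfrb* were from No Dox and 1wk WD. *Myh11* ran from 33 to 14029 at No Dox, from 2199 to 12365 at 1wk Dox and from 1096 to 8656 at 1wk WD. *Tagln* had the narrowest span of the contractile genes, from 191 to 1424, from 542 to 1815 and from 337 to 1149.

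*Pdgfb*, the ligand, did not follow the other 9 genes. Its β cell scores were 380, 563, 522 and 1038 at No Dox, 1631, 577, 797, 488 and 74 after 1wk Dox, and 608, 782 and 1290 at 1wk WD. No Dox replicates 1 and 2, with hardly any *Pdgfrb*, lay within the range of the other β cell libraries. The lowest value, in 1wk Dox replicate 5, was in a library whose endothelial marker *Cdh5* was 19, against 4829 in replicate 1, where *Pdgfb* was highest.

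**Figure D1:**
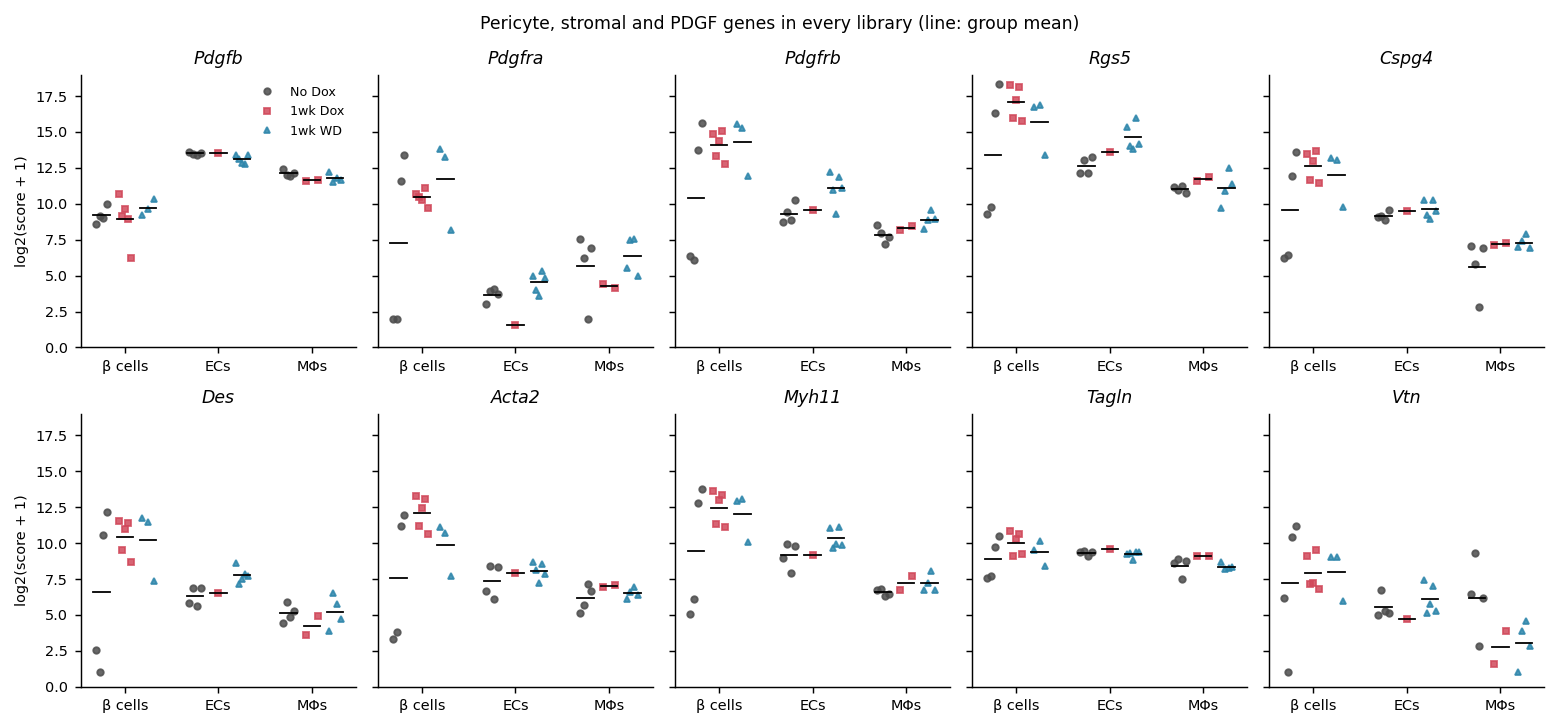
Score of each of the 10 genes in each of the 32 libraries, on a log2(score + 1) scale, by cell type and time point, with 1 point per library. In β cells all genes other than *Pdgfb* split the 4 No Dox libraries into 2 low and 2 high ones, and *Pdgfb* is highest in ECs at every time point.

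Genes of some other cell types varied along with these 9 genes among the β cell libraries. The mean log2(score + 1) of the 10 genes was 5.72, 5.30, 11.72 and 13.05 in the No Dox libraries, 10.23 to 12.63 after 1wk Dox, and 12.29, 12.25 and 9.32 at 1wk WD. The same mean over 10 fibroblast markers was 4.42, 3.05, 10.97 and 12.30 at No Dox, 9.35 to 11.06 after 1wk Dox, and 12.17, 11.91 and 8.29 at 1wk WD. The collagen gene *Col1a1* alone ran 23, 4, 13278 and 33390 in the No Dox libraries. The fibroblast list and the 10 genes thus placed the No Dox libraries in the same order.

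Acinar genes also split the No Dox libraries, with a mean over 10 markers of 15.74, 11.32, 19.86 and 19.33. That mean was 3.15 to 10.28 after 1wk Dox and 15.48, 12.98 and 3.91 in the 1wk WD libraries. Over 8 Schwann cell markers the mean was 4.72, 4.98, 7.85 and 9.08 at No Dox, 6.42 to 7.35 after 1wk Dox, and 8.04, 8.45 and 7.64 in the 1wk WD libraries. Over 10 macrophage markers it was 5.89, 4.58, 6.82 and 7.86 at No Dox, with *Itgam* at 21 to 50 and *Ptprc* at 33, 7, 1616 and 1038, and it was 6.30 to 6.97 after 1wk Dox and 7.33, 7.56 and 8.94 in the 1wk WD libraries. Over 10 endothelial markers the mean was 7.69, 7.06, 8.96 and 9.11 at No Dox, 12.42, 10.81, 11.33, 9.27 and 7.12 after 1wk Dox, and 8.52, 9.28 and 10.72 at 1wk WD, which is the order of *Pdgfrb* at No Dox and another order than that of *Pdgfrb* within the later time points. *Pecam1* was 168 to 537, 106 to 7237 and 256 to 3011 in the 3 groups. In bulk libraries, fewer cells of a type and less RNA per cell cannot be told apart, and what part mural, stromal or other cells in the sort had in these values was not tested.

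**Figure D2:**
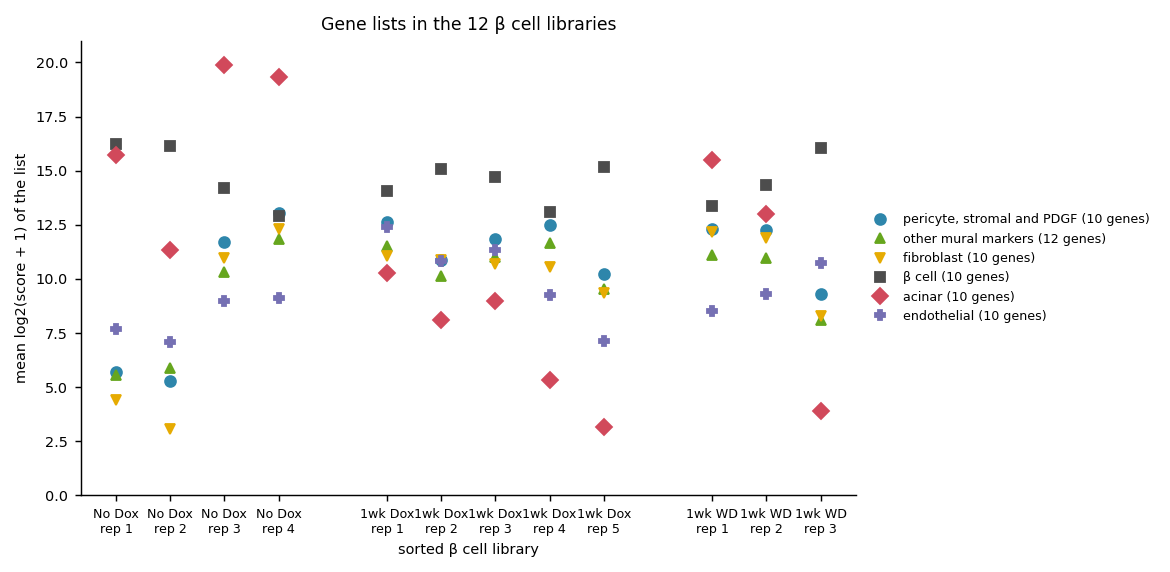
Mean log2(score + 1) of the 10 genes and of marker lists of other cell types in each of the 12 β cell libraries. The 10 genes and the fibroblast list are both lower in No Dox replicates 1 and 2 than in replicates 3 and 4, while the β cell list is higher in replicates 1 and 2.

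The question of whether Dox or its withdrawal changed the 10 genes in β cell libraries had no answer past the threshold. A gene was called when its fold change was at least 2 and its adjusted p from limma, over all genes tested, was under 0.05. At 1wk Dox against No Dox, 0 of 10 were called (0.0122% of 16346 genes tested), with 1 at an unadjusted p under 0.05 and a lowest adjusted p of 0.648. At 1wk WD, 0 of 10 were called against No Dox (0% of genes) and 0 of 10 against 1wk Dox (0% of genes), with 0 at an unadjusted p under 0.05 in either. The 9 genes other than *Pdgfb* had a median log2 difference from No Dox of 3.22 for 1wk Dox and 2.47 for 1wk WD, beside medians of 0.03 and 0.06 over all genes. *Acta2* was 4.57 ± 1.72 (SE) higher on the log2 scale at 1wk Dox, and *Pdgfrb* was 3.64 ± 1.82 higher (adjusted p = 0.738).

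Those differences rested on which No Dox libraries were used. The pairs left out here were chosen from these values, so the counts are a description. Without replicates 3 and 4, 8 of the 10 genes were called higher at 1wk Dox (7.36% of genes) and 7 at 1wk WD (8.74% of genes), with medians of 7.55 and 6.29 for the 9 genes. The *Pdgfrb* difference at 1wk Dox was then 7.87 on the log2 scale. Without replicates 1 and 2, 0 of 10 were called in either comparison (0.487% and 0.0853% of genes), and the medians were -0.59 and -1.15. *Pdgfrb* then had a difference of -0.59 at 1wk Dox, so the sign turned with the pair of control libraries that was kept.

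Because the scores of mural genes moved together, each library's *Pdgfrb* score was next held fixed as a covariate, a comparison chosen after the values had been seen. Over the 12 β cell libraries, Pearson's r of *Pdgfrb* was 0.981 with the collagen gene *Col1a1* and 0.989 with the mural gene *Notch3*. Its level is thus not specific to mural cells. At a given *Pdgfrb* level, 1 of the 9 other genes was called at 1wk Dox against No Dox (2.05% of genes), 0 at 1wk WD against No Dox (0.306% of genes; lowest adjusted p 0.0900, 5 genes at an unadjusted p under 0.05) and 2 at 1wk WD against 1wk Dox (0.128% of genes). *Acta2* was 2.45 ± 0.26 (SE) lower on the log2 scale at 1wk WD than at 1wk Dox, a 5.47-fold difference (adjusted p = 0.00383). *Rgs5* was 1.59 ± 0.28 lower in the same comparison (adjusted p = 0.0485). *Acta2* was 1.15 ± 0.28 higher at 1wk Dox than at No Dox (adjusted p = 0.0468).

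These 3 calls differed in how far they rested on single libraries. The *Acta2* difference between 1wk WD and 1wk Dox kept its call when *Notch3*, a receptor of mural cells, was used in place of *Pdgfrb* (1.66 lower, adjusted p = 0.0225) and when *Cspg4* was used (1.53 lower, adjusted p = 0.0205). It lost the call in 1 of 12 fits that left out a library, that without 1wk WD replicate 2 (adjusted p = 0.0692). The *Acta2* difference between 1wk Dox and No Dox lost its call in 9 of 12 such fits, and its value fell to 0.65 without No Dox replicate 4 (adjusted p = 0.703). That call was also lost with *Notch3* (adjusted p = 0.0717) or *Cspg4* (adjusted p = 0.112) as the covariate. The *Rgs5* call was lost in 10 of 12, and the difference shrank to -0.80 with *Notch3* (adjusted p = 0.155) and to -0.66 with *Cspg4* (adjusted p = 0.166).

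The same pattern was visible in the raw scores. *Acta2* was 11.25%, 19.7%, 16.68% and 7.89% of the *Pdgfrb* score in the No Dox β cell libraries. It was 33.4%, 22.4%, 27.1%, 25.3% and 22.7% after 1wk Dox, and 4.54%, 4.23% and 5.35% at 1wk WD. The ranges of the 3 time points did not overlap, although the *Acta2* and *Pdgfrb* scores themselves did. The No Dox shares of 11.25% and 19.7% rest on *Acta2* scores of 9 and 13, under the score minimum of 20, so the gap between No Dox and 1wk Dox is uncertain. *Rgs5* was 228 to 296% of *Pdgfrb* at 1wk WD against 599 to 1093% at 1wk Dox and 585 to 1318% at No Dox. *Cspg4* was 19.8 to 22.3% at 1wk WD against 30.2 to 39.9% at 1wk Dox and 25.2 to 128.8% at No Dox. The shares of *Pdgfra*, *Des*, *Myh11*, *Tagln* and *Vtn* overlapped between 1wk WD and 1wk Dox. These percentages compare libraries within 1 gene pair and say nothing of which transcript was more abundant.

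The mean log2 ratios to *Pdgfrb* of *Acta2* and *Rgs5*, the 2 genes called with the covariate, are given as a description without p-values, because the genes were picked on the same values. In β cells the *Acta2* ratio was 0.99 higher on the log2 scale at 1wk Dox than at No Dox. It was 2.47 lower at 1wk WD than at 1wk Dox and 1.48 lower than at No Dox. *Rgs5* had a ratio 1.60 lower at 1wk WD than at 1wk Dox and 0.01 higher at 1wk Dox than at No Dox.

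**Figure D3:**
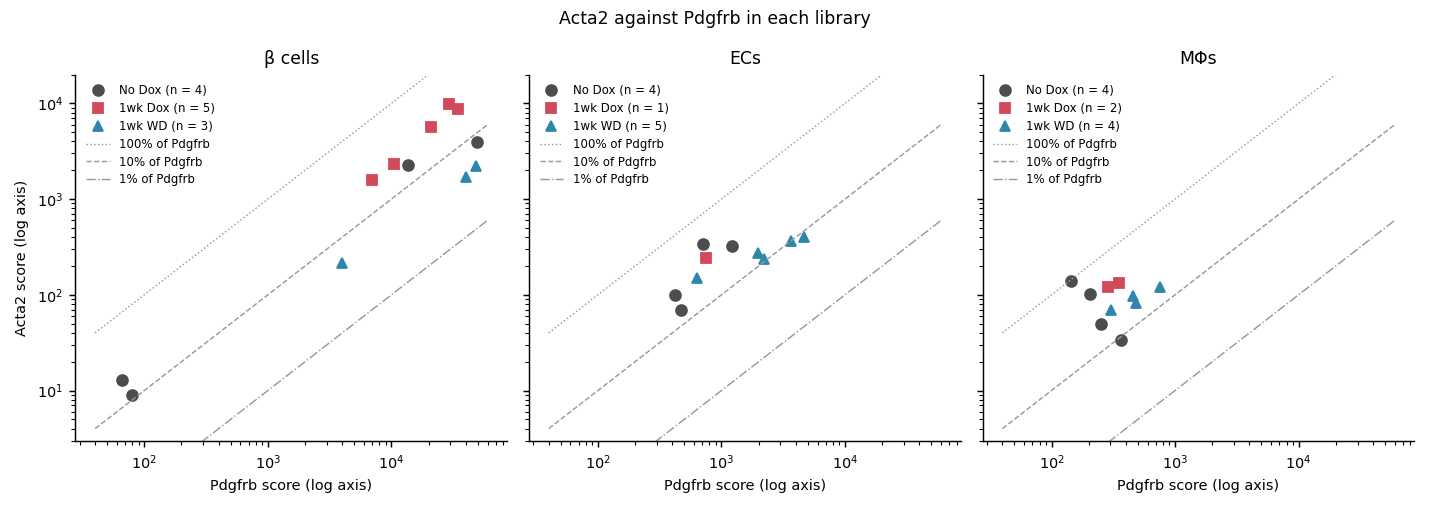
*Acta2* score against *Pdgfrb* score in each library, both on log axes, with 1 panel per cell type, 1 point per library and symbols for time point. In the β cell libraries *Acta2* is 4.23 to 5.35% of *Pdgfrb* at 1wk WD and 22.4 to 33.4% at 1wk Dox, with the No Dox libraries in between.

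Other genes of the mural and contractile programmes were read in the same β cell comparison. At a given *Pdgfrb* level, 0 of 14 contractile genes and serum response factor partners were called at 1wk WD against 1wk Dox (6 at an unadjusted p under 0.05, lowest adjusted p 0.163, median log2 difference -0.41, against 0.04 over all genes). Of the 11 other mural markers tested, 0 were called (5 at an unadjusted p under 0.05, median -0.76). The fibroblast gene *Dcn*, a small proteoglycan of connective tissue named here after its values had been seen, was 20677, 20646 and 1208 in the 1wk WD libraries and 2331 to 5495 in those at 1wk Dox, whereas *Pdgfrb* was 48280, 40295 and 3980 against 6919 to 34404. In 1wk WD replicate 3, in which *Acta2* was 5.35% of *Pdgfrb*, the stromal receptor *Pdgfra* was 7.31% of it, inside the range at 1wk Dox. What part the mix of mural and stromal cells had in the *Acta2* ratio was not tested.

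In ECs, the pericyte genes *Rgs5* and *Des* rose after Dox withdrawal. *Rgs5* had scores of 4582, 8531, 4449 and 9981 at No Dox and of 40996, 16799, 14734, 63203 and 18398 at 1wk WD. Every 1wk WD library lay above every No Dox library. The log2 difference was 2.01 ± 0.41 (SE), a 4.02-fold rise (adjusted p = 0.0206). *Des* had scores of 57, 114, 49 and 116 at No Dox and of 398, 142, 176, 235 and 209 at 1wk WD, again without overlap, and rose by 1.47 ± 0.35 on the log2 scale (adjusted p = 0.0385). These 2 of 10 were called, beside 1.76% of 14167 genes tested.

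The other members in ECs did not pass the threshold. *Pdgfrb* had scores of 423, 703, 468 and 1206 at No Dox and of 4647, 1975, 636, 3682 and 2229 at 1wk WD, with only replicate 3 of 1wk WD inside the No Dox range. Its log2 difference was 1.76 ± 0.49 (adjusted p = 0.0645), and over the 9 fits that left out 1 library it ran from 1.48 to 2.20 (adjusted p from 0.0122 to 0.182). *Myh11* had scores of 503, 991, 247 and 869 and of 2144, 803, 1001, 2253 and 938, and *Acta2* of 100, 342, 69 and 324 and of 402, 274, 149, 366 and 235, so both overlapped between the time points. *Pdgfra* (0.88 ± 0.53), *Cspg4* (0.47 ± 0.28), *Tagln* (-0.10 ± 0.16) and *Vtn* (0.58 ± 0.55) had adjusted p of 0.334 to 0.745. *Pdgfb*, the EC ligand, had scores of 12561, 11204, 10905 and 11830 at No Dox and of 10882, 9077, 7299, 7152 and 10917 at 1wk WD, a difference of -0.38 ± 0.14 (adjusted p = 0.143). The median log2 difference of the 9 genes without *Pdgfb* was 0.88, beside 0.0025 over all genes, and *Acta2* as a share of *Pdgfrb* was 14.7 to 48.7% at No Dox and 8.65 to 23.4% at 1wk WD (log2 ratio 1.07 lower).

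Both calls were lost with no filter on low scores (adjusted p = 0.174 for *Rgs5* and 0.181 for *Des*) and with no trend of the spread (0.0769 and 0.0824), and that of *Des* with a replicate block (0.0746). The call of *Rgs5* in ECs was lost without EC No Dox replicate 1 (adjusted p = 0.0732) or replicate 3 (adjusted p = 0.0736), and that of *Des* in 7 of 9 fits that left out a library. Of 12 other mural markers, 11 were tested and 5 were called, all higher at 1wk WD. They were *Heyl*, a Notch target (2.58 ± 0.53, adjusted p = 0.0215), *Ednra*, the endothelin A receptor (2.17 ± 0.47, adjusted p = 0.0246), *Abcc9*, a potassium channel subunit (1.92 ± 0.40, adjusted p = 0.0221), and the guanylate cyclase subunits *Gucy1a3* (2.35 ± 0.42, adjusted p = 0.0126) and *Gucy1b3* (1.57 ± 0.35, adjusted p = 0.0282). Of 13 contractile genes tested 0 were called, with 5 at an unadjusted p under 0.05. Fibroblast markers moved the same way, with 3 of 5 tested called higher, among them *Col1a1* (10 to 33 at No Dox and 55 to 201 at 1wk WD) and, named after its values had been seen, *Col3a1* (55 to 131 and 273 to 1060). The mean log2 level of the 10 fibroblast markers was 3.42 to 4.003 at No Dox and 4.33 to 5.31 at 1wk WD. The mean of the 10 acinar markers in ECs was 12.08 to 16.90 at No Dox and 4.96 to 12.22 at 1wk WD, and that of the 10 endothelial markers was 15.42 to 15.57 and 15.06 to 15.28. The part of stromal, mural, acinar or other cells in the EC sort was not tested.

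**Figure D4:**
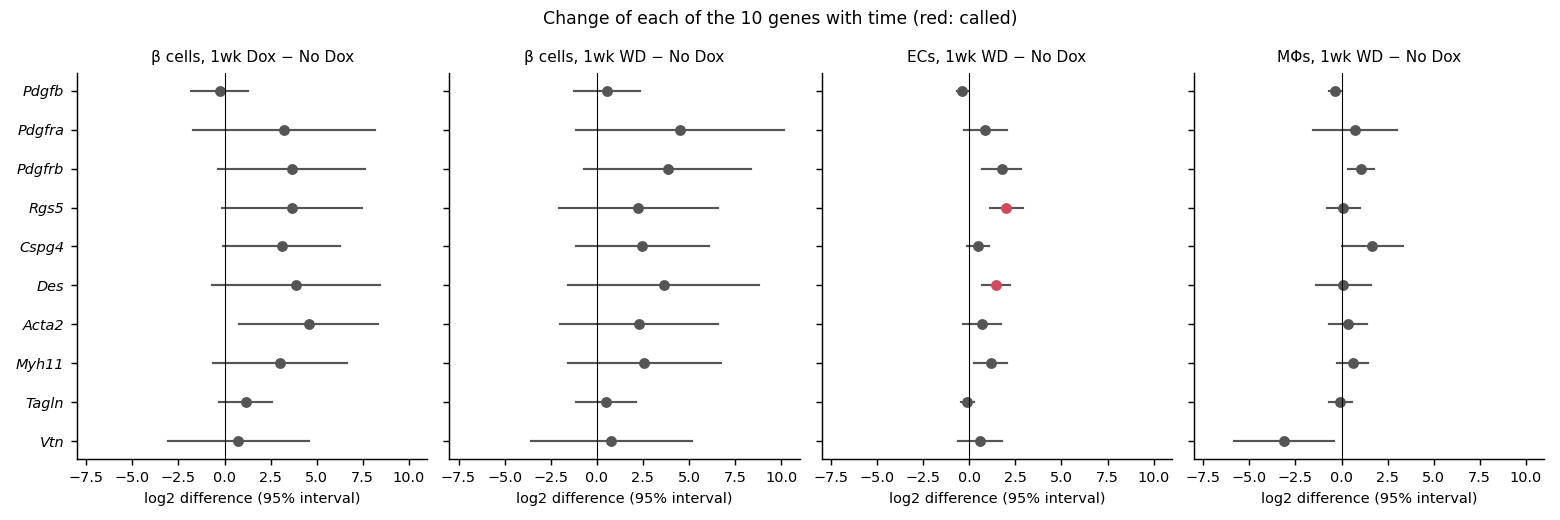
Log2 difference from No Dox of each of the 10 genes in β cells, ECs and MΦs, with 95% confidence intervals from limma. The β cell intervals are the widest, and in ECs *Rgs5* (2.01) and *Des* (1.47) are the only members called.

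The single EC library at 1wk Dox allowed no test. Of the 10 genes, 6 lay inside the range of the 4 No Dox EC libraries, 2 above it (*Rgs5* at 12236 and *Tagln* at 754) and 2 below it (*Pdgfra* at 2 and *Vtn* at 25). None of the 9 genes above the score minimum differed 2-fold from the No Dox mean, beside 10.7% of 14047 genes. *Pdgfb*, at 11835, *Pdgfrb*, at 755, and *Acta2*, at 240, all lay among the No Dox values.

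In MΦs, none of the 10 genes passed the test between time points. *Pdgfb* had scores of 5416, 4110, 3993 and 4423 at No Dox, of 3104 and 3212 after 1wk Dox, and of 4739, 2870, 3545 and 3272 at 1wk WD. Both 1wk Dox libraries lay below all No Dox libraries, with a log2 difference of -0.50 ± 0.19 (adjusted p = 0.164), and at 1wk WD the difference was -0.33 ± 0.16 (adjusted p = 0.307). Limma called 0 of 10 genes at 1wk Dox against No Dox (2.26% of 15014 genes), 0 at 1wk WD against No Dox (0.626%) and 0 at 1wk WD against 1wk Dox (0.0866%), with 2, 3 and 0 at an unadjusted p under 0.05.

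*Pdgfrb* in MΦs had scores of 366, 251, 145 and 204 at No Dox, 285 and 354 after 1wk Dox, and 305, 460, 757 and 480 at 1wk WD, a rise of 1.05 ± 0.33 on the log2 scale that did not pass the test (adjusted p = 0.127). *Rgs5* was 1701 to 2396 at No Dox, 3089 and 3806 after 1wk Dox, and 848 to 5888 at 1wk WD. *Acta2* was 34 to 140, 122 to 133 and 69 to 122. *Cspg4* was 1.57 ± 0.93 higher at 1wk Dox (adjusted p = 0.369) and 1.66 ± 0.76 higher at 1wk WD (adjusted p = 0.287), with scores of 131, 54, 6 and 118 at No Dox. Differences from No Dox of *Pdgfra*, *Des*, *Myh11* and *Tagln* ran from -1.41 to 0.71, with adjusted p of 0.325 to 0.957. *Vtn* was 85, 637, 6 and 71 at No Dox and 1 to 23 in all later libraries, and the No Dox library with 637 was also the one in which acinar genes made up 24.97% of all scores. *Vtn* differed by -3.43 at 1wk Dox (adjusted p = 0.221) and by -3.11 at 1wk WD (adjusted p = 0.230).

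*Pdgfb* marked ECs at every time point. As mean log2(score + 1) ± SD it was 13.50 ± 0.09 (n = 4) in ECs, 12.12 ± 0.20 (n = 4) in MΦs and 9.19 ± 0.61 (n = 4) in β cells at No Dox. The ranges of the 3 cell types did not overlap. At No Dox, ECs exceeded β cells by 4.31 ± 0.25 (SE), a 19.9-fold difference (adjusted p = 1.64e-07), and MΦs by 1.38 ± 0.25 (adjusted p = 0.000655), and the difference of β cells from MΦs was -2.93 ± 0.25 (adjusted p = 2.36e-06). At 1wk WD the order was the same, with ECs 3.39 ± 0.25 above β cells (adjusted p = 1.78e-07) and 1.33 ± 0.23 above MΦs (adjusted p = 0.000220).

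*Pdgfd* was also highest in ECs, *Pdgfc* in MΦs and *Pdgfa* in β cell libraries at No Dox. *Pdgfd*, a ligand of receptor β, was 29328 to 59456 in No Dox ECs, 286 to 4157 in β cells and 35 to 817 in MΦs, and ECs exceeded β cells by 5.22 ± 1.00 on the log2 scale (adjusted p = 0.00107). *Pdgfc*, a ligand of receptor α, was 906 to 1588 in No Dox MΦs, 23 to 97 in ECs and 47 to 429 in β cells. In MΦs *Pdgfc* rose by 1.08 ± 0.25 at 1wk Dox, to 2357 and 2494 (adjusted p = 0.0333), and was 1.00 ± 0.21 higher at 1wk WD, just under the 2-fold minimum (adjusted p = 0.0409). *Pdgfa*, another ligand of receptor α, was 672 to 3009 in No Dox β cell libraries, 302 to 591 in ECs and 253 to 711 in MΦs, and β cell libraries exceeded MΦs by 1.58 ± 0.46 (adjusted p = 0.0124). Among the 25 PDGF ligand and signalling genes of the list, 0 were called in ECs at 1wk WD and 1, *Pdgfc*, in MΦs at 1wk Dox.

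Fewer of the other members were called between cell types at No Dox, where the β cell libraries spanned a wide range and shared 1 estimate of the spread with ECs and MΦs. Limma called 1 of 10 members between ECs and β cells (37.7% of 16380 genes), 1 between ECs and MΦs (33.5%) and 2 between β cells and MΦs (43.2%). The calls were *Pdgfb* in each and *Cspg4*, 3.91 higher in β cells than in MΦs (adjusted p = 0.0492). That *Cspg4* call was lost in 10 of 12 fits that left out 1 library (adjusted p up to 0.140) and in 5 of 7 other settings (up to 0.108). When ECs and MΦs alone were fitted, 5 of 10 members were called, beside 39.6% of 15288 genes, all higher in ECs. They were *Cspg4* (3.53 ± 0.82 on the log2 scale, adjusted p = 0.00455), *Myh11* (2.58 ± 0.42, adjusted p = 0.000493), *Rgs5* (1.63 ± 0.27, adjusted p = 0.000538), *Pdgfrb* (1.48 ± 0.38, adjusted p = 0.00835) and *Pdgfb*. Of these, *Rgs5* was 4449 to 9981 in ECs and 1701 to 2396 in MΦs, and *Cspg4* was 464 to 741 and 6 to 131, without overlap.

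At 1wk WD more of the members separated the cell types. Between ECs and β cells 7 of 10 were called (39.9% of 16435 genes): *Pdgfb* was higher in ECs, and *Pdgfra*, *Pdgfrb*, *Des*, *Cspg4*, *Acta2* and *Myh11* were lower, by 7.20, 3.19, 2.41, 2.38, 1.78 and 1.69 on the log2 scale. Of the 12 fits that left out 1 library, the call was lost in 6 for *Des* (adjusted p up to 0.163), 5 for *Myh11* (up to 0.169) and 4 for *Acta2* (up to 0.153), and of 7 other settings in 2, 4 and 3. Between ECs and MΦs 8 of 10 were called (40.3%), all higher in ECs, with *Rgs5* 3.54 ± 0.73 higher (adjusted p = 0.00102) and *Acta2* 1.56 ± 0.58 higher (adjusted p = 0.0348). The call of *Acta2* was lost in 7 of 12 fits that left out 1 library (adjusted p up to 0.0848) and in 1 of 7 other settings (0.0791). *Pdgfra* (11 to 40 in ECs and 31 to 184 in MΦs) and *Tagln* (454 to 673 and 288 to 413) were the members not called there. Between β cells and MΦs all 10 were called (46.2%), 9 higher in β cells and *Pdgfb* lower by 2.06, with *Pdgfrb* 5.38 ± 0.80 higher (adjusted p = 6.95e-05) and *Pdgfra* 5.35 ± 1.13 higher (adjusted p = 0.00118). The call of *Tagln* there was lost in 5 of 12 fits that left out 1 library (adjusted p up to 0.135) and in 3 of 7 other settings (up to 0.0712).

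Whether the changes with time differed between cell types was tested directly, and limma called 0 of 10 members in each of 4 such comparisons, with 0 at an unadjusted p under 0.05. They were the change at 1wk WD in ECs against MΦs (0.265% of 16951 genes called), in β cells against ECs (0.383%) and in β cells against MΦs (0.0413%), and the change at 1wk Dox in β cells against MΦs (0.0354%). The lowest adjusted p for a member was 0.494. That fit shared 1 estimate of the spread with the β cell libraries, which spanned a wide range. *Rgs5* had a mean log2(score + 1) of 12.66 at No Dox and 14.66 at 1wk WD in ECs, and of 11.02 and 11.13 in MΦs. Whether its rise in ECs differs from its change in the other cell types therefore cannot be decided by this fit.

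The genes whose scores ran most like those of a member were named by Pearson's r of log2(score + 1). Over all 32 libraries, *Pdgfb* was most like *Spnb5* (r = 0.960), *Vgll4* (0.957), *Smagp* (0.956), *Xiap* (0.955) and *Prkch* (0.952), whereas its r with *Pdgfrb* was -0.42. Over the 12 β cell libraries, *Pdgfrb* was most like *Axl* and *Afap1l2* (each 0.998), and then *Pcdh19*, *Zeb2* and *Tbx3* (each 0.997). *Acta2* was most like *Hspb7* (0.985), *ORF63* (0.982), *Pcdh18* (0.982), *Ptrf* (0.980) and *Tpm2*, the β-tropomyosin gene (0.979). The member *Rgs5* had a higher r with *Acta2* (0.988) than any of these. The points share the make-up of each library, so these values describe likeness and carry no p.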

How the data were processed

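RNA from sorted islet β cells, ECs and MΦs was amplified with the NuGEN Ovation kit by the authors and sequenced. Reads were aligned with TopHat2 2.0 to mm9 according to the submitters' processing notes, and the study's methods name TMM scaling in Avadis NGS. As deposited, each value is a score from the authors, a whole TMM-scaled number per gene, and no read counts were used here, so the depth per library is unknown. The sums of scores ran from 23465985 to 53441769 per library. Columns that matched no sample (6 of 38) were not used. The 10 genes and the marker lists were chosen with earlier results of these data known.

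Scores were taken as log2(score + 1) and limma 3.58.1 (R 4.3.3) was run with an empirical Bayes trend within each cell type or each time point, keeping genes whose mean score reached 20 in 1 or more groups. Fold changes of low genes are understated on this scale. Benjamini-Hochberg adjustment covered all genes tested, and a call needed a 2-fold change and an adjusted p under 0.05. No Dox libraries serve as the controls of both later time points. Levels and ratios were computed in Python 3.11.15 with numpy 2.4.6 and pandas 2.3.3. The fits were tested on simulated data in which the spread between replicates was capped. The cap lay below the spread of the members other than *Pdgfb* in No Dox β cells, so the simulation does not speak for those members in the β cell fits. Beside the 10 genes, the text names *Pdgfa*, *Pdgfc*, *Pdgfd*, the first 2 genes of each list and called genes of the PDGF, mural and contractile lists. It also names the 5 genes outside the 10 most correlated with *Pdgfb*, *Pdgfrb* or *Acta2*. *Dcn* and *Col3a1* were named after their values had been seen.

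Alternatives were a pseudocount of 20, no filter or a minimum of 200, no trend, median-of-ratios scaling, a replicate block, only the groups compared, and leaving out each replicate. Leaving out pairs of β cell libraries, the *Pdgfrb* covariate, the ratios to *Pdgfrb* and the comparison of changes between cell types were added after the data had been seen. Upstream sequence was read from mm9 at the gene starts given in the table.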

Additional observations from a re-analysis of the deposited data

Results flagged for a closer look

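For each of the 10 genes, the groups of 4 or 5 libraries were checked for a library far from the rest of its group, 60 checks in all, and 3 were found, where chance gives about 1 in 20. *Tagln* was 179 in 1 MΦ library at No Dox against 398 to 469 in the other 3. *Tagln* was also 454 in 1 EC library at 1wk WD against 613 to 673 in the other 4. *Vtn* was 106 in 1 EC library at No Dox against 31 to 37 in the other 3, and that library was replicate 2.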

How the results depend on the processing

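The count of members called in ECs at 1wk WD fell from 2 to 0 with no filter (adjusted p 0.174 for *Rgs5*, 0.181 for *Des*) and to 0 with no trend. Between cell types at No Dox, ECs against MΦs gave 5 members with only those groups fitted, and β cells against MΦs gave 1 with a pseudocount of 20, no filter, no trend, the replicate block or only those groups. ECs against β cells at 1wk WD gave 4 with no filter and 4 with the replicate block.

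Leaving out 1 library at a time gave 0 to 2 members in ECs. It gave 1 to 2 (ECs against MΦs) and 1 to 3 (β cells against MΦs) at No Dox, and 4 to 9 (ECs against β cells) and 5 to 9 (ECs against MΦs) at 1wk WD. The β cell *Pdgfrb* covariate gave 0 to 2 for 1wk Dox against No Dox, 0 to 1 for 1wk WD against No Dox and 0 to 2 for 1wk WD against 1wk Dox.

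Of the alternatives added later, leaving out No Dox β cell replicates 3 and 4 gave 8 and 7 members against 0. Leaving out replicates 1 and 2, or these and 1wk WD replicate 3, turned the *Pdgfrb* difference at 1wk Dox to -0.59, and the latter gave 1 member at 1wk WD against 1wk Dox. In the covariate fit, *Notch3* or *Cspg4* gave 0 for 1wk Dox and 1 for 1wk WD against 1wk Dox, and a pseudocount of 20 gave 2 at 1wk WD against No Dox. Leaving out the 3 low libraries gave 2 for 1wk Dox, neither of them *Acta2*, whose call was lost there (adjusted p = 0.0638). That *Acta2* call was also lost with a pseudocount of 20 (adjusted p = 0.0529). The *Rgs5* call at 1wk WD against 1wk Dox was lost without the 3 low libraries (adjusted p = 0.106). The cause of these changes was not tested.

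Replicate numbers did not consistently pair the libraries: correlations of same-numbered libraries ran from -0.48 to 0.34 in β cells, -0.21 to 0.20 in ECs and -0.12 to 0.11 in MΦs. Between cell types they ran from -0.19 to 0.38 at No Dox and from -0.07 to 0.14 at 1wk WD. The replicate block gave *Pdgfrb* in ECs 1.75 (adjusted p = 0.0404) and *Des* 1.48 (adjusted p = 0.0746). Over all genes the calls ranged from 27 to 283 under the other settings against 250 in ECs, from 3 to 387 against 340 in MΦs at 1wk Dox, from 11 to 108 against 94 at 1wk WD, from 0 to 79 against 13 for MΦs at 1wk WD against 1wk Dox, and from 0 to 2 against 2 in β cells at 1wk Dox. Leaving out 1 library gave 75 to 311 in ECs, 0 to 487, 23 to 123 and 0 to 24 in the same MΦ comparisons, 1 to 26 in β cells at 1wk Dox, and, with the *Pdgfrb* covariate, 89 to 460 against 335, 0 to 111 against 50 and 0 to 104 against 21. The unknown depth limits what low scores can show.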
